A study of Mus musculus with 5 samples.

Results

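Translation initiation factors bring the small ribosomal subunit, the initiator tRNA and an mRNA together and set the reading frame. Genes whose symbol began with Eif and a digit from 1 to 6 were taken from the expression arrays, without the sex-linked pair Eif2s3x and Eif2s3y. This gave 47 genes of the 19938 that had a probe set annotated to a single symbol. The cells, labelled as lung leukocytes and in the design as natural helper cells, were lung natural helper cells (group 2 innate lymphoid cells), sorted from naive C57Bl/6 mice of 6 to 8 weeks as lineage-negative, Sca-1-positive, CD127-positive, CD25-positive cells with little or no c-Kit. The unstimulated group was 3 samples whose RNA was taken right after the sort. The other group was 2 samples kept for 3 days in 60 ng/ml PMA, which switches on protein kinase C, and 500 ng/ml of the calcium ionophore ionomycin. No genotype other than the strain was named for either group, and no sample was cultured without the activators, so the effects of time in culture and of the activators cannot be told apart.

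In textbook outline, eIF2 carries the initiator tRNA in its GTP form, and eIF2B recharges eIF2 with GTP. Stress kinases phosphorylate eIF2 and so turn it into an inhibitor of eIF2B, which lowers overall translation while favouring a few mRNAs such as that of ATF4. The cap-binding protein eIF4E, the scaffold eIF4G and the helicase eIF4A form eIF4F on the mRNA's cap, and eIF4E-binding proteins keep eIF4E away from eIF4G until the kinase mTORC1 phosphorylates them. The many-subunit factor eIF3 holds the small subunit to the mRNA, eIF1 and eIF1A guard start codon choice, eIF5 and eIF5B act when the start codon is found and the large subunit joins, and eIF6 keeps free large subunits apart. Lymphocytes that leave rest are known to enlarge and to make more of their translation machinery.

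Values were deposited as RMA expression on the log2 scale, without detection calls, and differences below are PMA and ionomycin minus unstimulated with SE, their standard error from limma. The sort and lineage markers were bright: all 11 measured of 13 natural helper markers lay above the median of all probe sets (5.64) in both groups. Il1rl1 and Areg were not measured. Identity markers moved with stimulation too: 4 of the 11 were called lower and none higher, beside 0.963% and 0.737% of all genes. Il17rb, a receptor chain for IL-25, fell by 3.23 (adjusted p = 0.0492, limma), the transcription factor genes Rora and Id2 fell by 0.81 and 0.78, and the sort marker gene Il7r (CD127) fell by 0.77. Thy1 (-1.34, adjusted p = 0.0582), Klrg1 (-1.27, adjusted p = 0.0641) and Gata3 (-0.51, adjusted p = 0.107) were not called. The remaining markers had positive differences without a call: Il13 2.41 (adjusted p = 0.0942), Il5 0.71, Il2ra 0.19 and Ptprc 0.03. The part of this change in the cells in the results was not tested. Markers of other cell types had lower means in the cultured samples. Of 46 measured, 22 lay above that median in unstimulated cells and 15 after PMA and ionomycin, none was called, and their mean level was 6.14, 6.06 and 5.56 on unstimulated arrays 1 to 3 against 5.26 on each stimulated array. The 2 lists with the widest range among unstimulated arrays were T cells (means 6.74 to 7.84, against 6.64 to 6.86 after stimulation) and lung epithelium (6.31 to 7.35 against 5.80 to 5.85). Mcpt4, Klrb1c and Klra8 lay below the lower quartile of all probe sets (4.49) on every array. Others, picked after their values were seen, were bright in unstimulated cells. Scgb1a1 (lung epithelium) read 11.17, 10.58 and 8.67 against 6.95 and 7.97. Cdh5 (endothelium) read 9.71, 9.06 and 7.12 against 5.59 and 6.19. S100a9 (granulocytes) read 9.49, 8.15 and 6.91 against 4.97 and 5.09. Cd3g (T cells) read 10.21, 10.56 and 10.24 against 9.78 and 9.43. Xist, expressed from the inactive X chromosome, differed by -5.52 ± 0.38 SE, so a difference in sex cannot be told apart from that between groups. The part of other cells in the results was not tested, and in these bulk samples fewer cells of a type and less RNA per cell cannot be told apart.

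Initiation factor genes were mostly higher after 3 days with PMA and ionomycin, by modest amounts. The median difference over the 47 genes was 0.34, against 0.00 over all 19938 genes and 0.02 over the 10356 genes brighter than the median of all probe sets, to which 46 of the 47 belonged. Eif4enif1 and Eif4a1 rose (limma, Benjamini-Hochberg adjusted p under 0.05 over all genes), and no member fell. This is 2 of 47 called higher and 0 lower, where 0.737% of all genes were called higher and 0.963% lower, and 1.27% and 1.80% of the genes above the median. At an unadjusted p under 0.05, 23 members were higher and 4 lower, against 11.3% and 8.58% of all genes and 19.3% and 14.4% of those above the median. Both stimulated arrays lay above all 3 unstimulated arrays for 29 members (61.7%) and below them for 7 (14.9%), with 11 overlapping. Among all genes the groups stood apart in these ways for 18.6% and 14.0%, and among the brighter genes for 29.9% and 21.3%.

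The shift could be seen on every pair of arrays. The members' median level was 8.25, 8.41 and 8.54 on unstimulated arrays 1 to 3 and 8.80 and 8.81 on stimulated arrays 1 and 2, while the median over all genes stayed between 5.68 and 5.73. Between a stimulated and an unstimulated array the members' median difference ran from 0.28 to 0.38, with 32 to 37 members higher, and the median over all genes was 0 in each of the 6 pairs. Of the 19938 genes, 12359 held a value repeated exactly on more than 1 array, so a median of exactly 0 can come from ties. Unstimulated array 1 was the lowest of the unstimulated arrays for 26 members (55.3%), as it was for 40.8% of the brighter genes. Against unstimulated array 3 alone, where markers of other cell types were lowest, the members' median difference was 0.29. With 1 unstimulated array the spread within that group cannot be seen, so no calls are given.

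**Figure D1:**
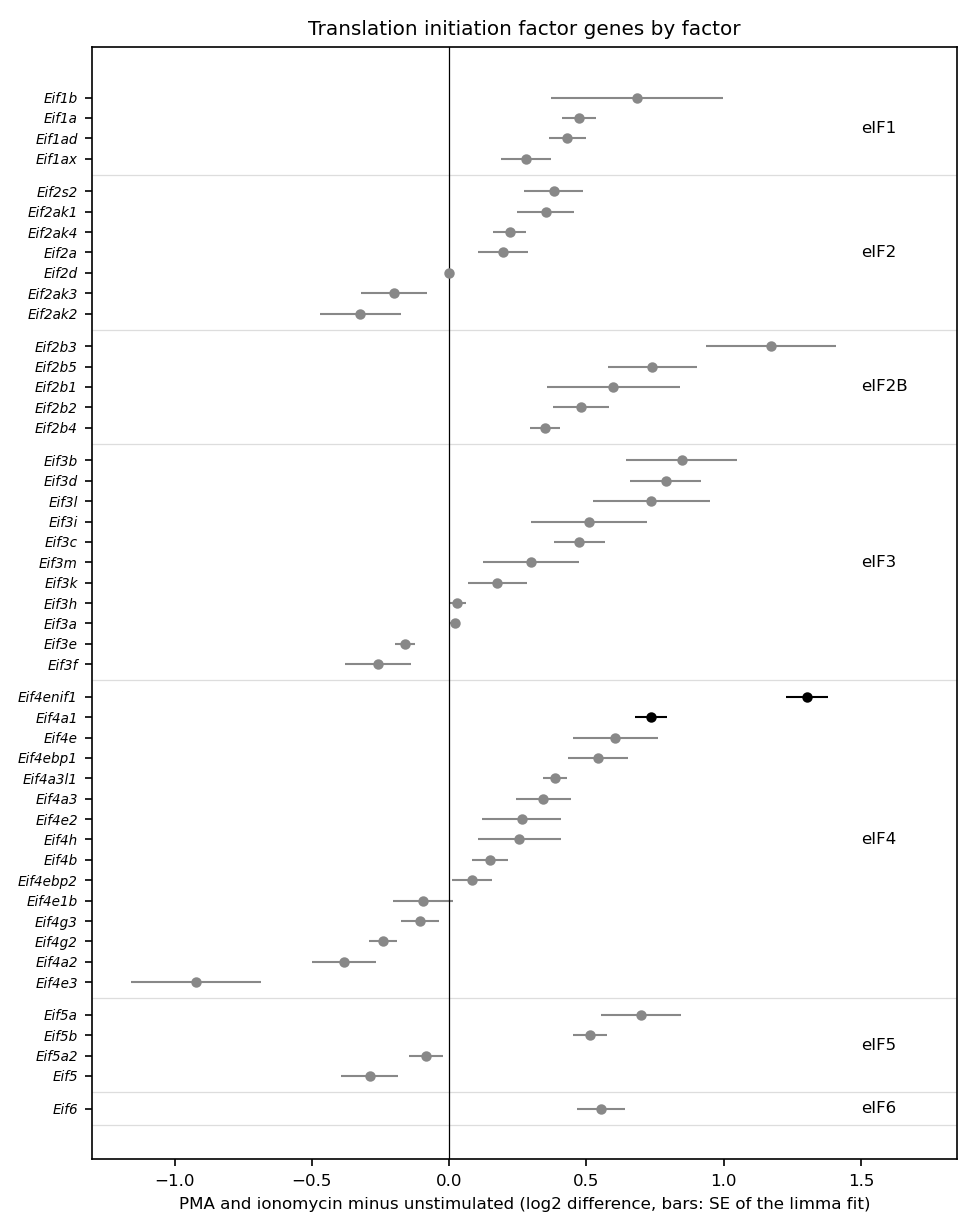
Each point is 1 of the 47 initiation factor genes, with the log2 difference of PMA and ionomycin (2 arrays) minus unstimulated (3 arrays) on the horizontal axis and bars of 1 SE of the limma fit. Genes are grouped by factor, black points are the called genes Eif4enif1 (1.30) and Eif4a1 (0.74), and all 5 eIF2B genes lie to the right of 0.

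**Figure D2:**
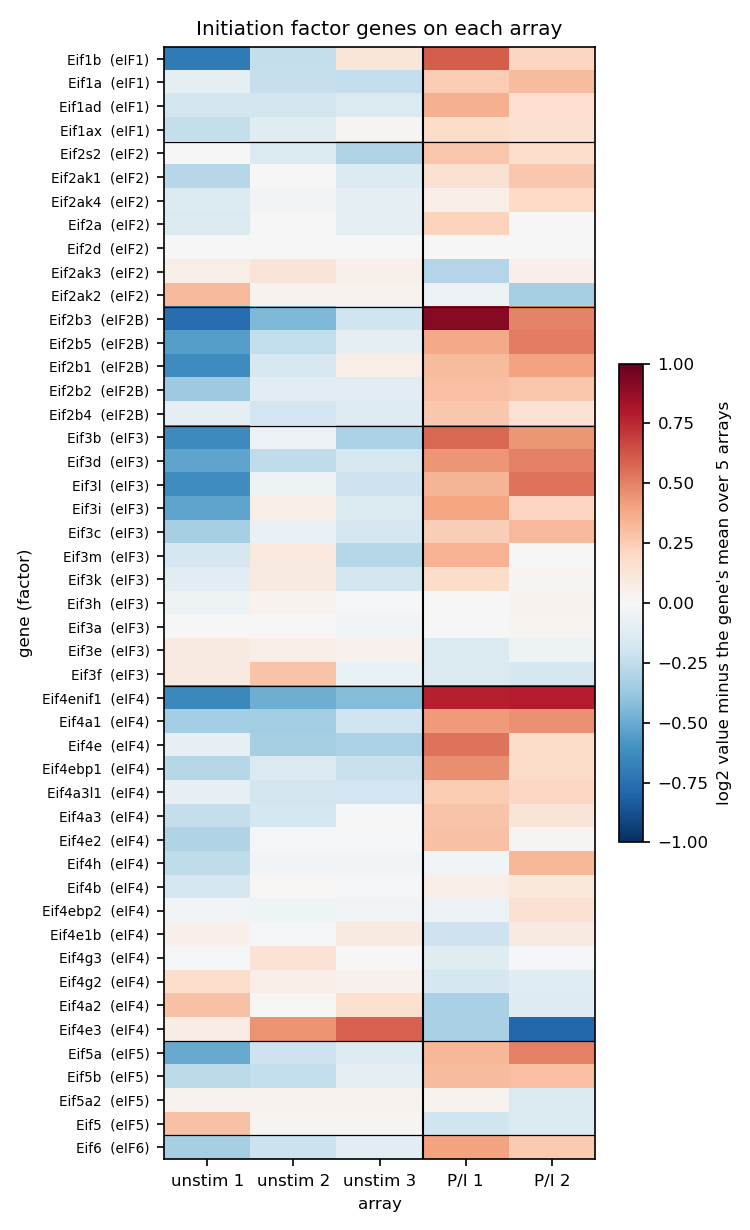
Rows are the 47 genes by factor, columns the 5 arrays, and colour is the log2 value minus the gene's own mean over the 5 arrays. Red fills most of the stimulated columns, while Eif4e3, Eif4a2, Eif4g2, Eif5, Eif3e, Eif3f and Eif2ak2 run the other way.

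The genes of the eIF1 group all lay higher after stimulation. For all 4 genes the groups did not overlap, with a median difference of 0.45, and none was called. Among the brighter genes 29.9% lay wholly above the unstimulated arrays. Eif1a, which codes for an eIF1A protein, read 7.36, 7.22 and 7.20 in unstimulated cells and 7.70 and 7.77 after stimulation (0.47 ± 0.06 SE, adjusted p = 0.0661). The X-linked eIF1A gene Eif1ax was brighter and read 10.52, 10.63 and 10.78 against 10.93 and 10.91 (0.28 ± 0.09, adjusted p = 0.230). The stimulated arrays thus lay just above the highest unstimulated array for Eif1ax and well clear of it for Eif1a. Eif1b, a close relative of the start codon factor eIF1, had the widest difference but also the widest spread: 7.92, 8.40 and 8.76 against 9.24 and 8.85 (0.69 ± 0.31, adjusted p = 0.378). Eif1ad, named for its eIF1A-like domain, read 7.26, 7.26 and 7.30 against 7.80 and 7.61 (0.43 ± 0.07, adjusted p = 0.0803). Another 4 probe sets, annotated to Eif1a together with a group of predicted genes and therefore outside the count, differed by 0.54 to 0.63. The gene of eIF1 itself, Eif1, was not measured.

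Within the eIF2 group the beta subunit gene Eif2s2 was higher on both stimulated arrays. It read 10.30, 10.17 and 10.01 against 10.59 and 10.49 (0.38 ± 0.11 SE, adjusted p = 0.180). A second probe set of the gene gave 0.40 ± 0.08. The alpha subunit gene Eif2s1 was not measured. Eif2a, which despite its symbol is not an eIF2 subunit but a separate protein that can deliver initiator tRNA, read 8.90, 9.05 and 8.96 against 9.28 and 9.05 (0.20 ± 0.09, adjusted p = 0.380). For Eif2d, which codes for a protein of ribosome recycling and reinitiation, the table held 1 value, 7.25, on all 5 arrays, so it carries no information on a change.

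The 4 eIF2 kinase genes split evenly and none was called. Eif2ak1, coding for the haem-regulated kinase HRI, read 7.18, 7.46 and 7.32 in unstimulated cells against 7.61 and 7.73 (0.35 ± 0.10 SE, adjusted p = 0.197). Eif2ak4, coding for GCN2, which senses uncharged tRNA, read 6.36, 6.47 and 6.40 against 6.56 and 6.70 (0.22 ± 0.06, adjusted p = 0.173). Both kinases had groups that did not overlap, with the stimulated arrays on top, as was so for 29.9% of the brighter genes. Eif2ak2, coding for the double-stranded RNA sensor PKR and known as an interferon-induced gene, read 7.26, 6.97 and 6.97 against 6.88 and 6.61 (-0.32 ± 0.15, adjusted p = 0.376). Eif2ak3, coding for PERK, the kinase of the endoplasmic reticulum stress response, overlapped between the groups: 6.46, 6.53 and 6.46 against 6.11 and 6.46 (-0.20 ± 0.12, adjusted p = 0.472). The median over the 4 kinases was 0.01.

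All 5 genes of eIF2B, the exchange factor for eIF2, lay higher, with a median difference of 0.60. None was called over all genes. For all 5 both stimulated arrays lay above all unstimulated arrays, beside 29.9% of the brighter genes. Eif2b3, the gamma subunit gene, read 6.03, 6.34 and 6.59 in unstimulated cells and 7.70 and 7.29 after stimulation, a 2.25-fold difference (1.17 ± 0.24 SE, adjusted p = 0.112). Eif2b5, coding for the catalytic epsilon subunit, read 5.77, 6.07 and 6.22 against 6.69 and 6.82 (0.74 ± 0.16, adjusted p = 0.127). The partner subunits of the catalytic core were thus the 2 with the widest differences. Eif2b1, the alpha subunit gene, read 6.38, 6.85 and 7.08 against 7.32 and 7.41 (0.60 ± 0.24, adjusted p = 0.321). Eif2b2, the beta subunit gene, read 6.86, 7.12 and 7.12 against 7.53 and 7.50 (0.48 ± 0.10, adjusted p = 0.120). Eif2b4, the delta subunit gene, had the smallest difference and the least spread: 6.24, 6.14 and 6.20 against 6.60 and 6.48 (0.35 ± 0.05, adjusted p = 0.0815). Unstimulated array 1 was the lowest for 4 of these 5 genes. Leaving out that array gave a median of 0.40 over the subunits, as did setting unstimulated array 3 on its own against the stimulated arrays. Its place among the factors was not stable: the eIF1 median was above it in the first case (0.45) and the eIF3 median in the second (0.45).

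The genes around eIF2 that act on its phosphorylation or respond to it included 2 called genes, both lower. Among all genes 0.963% were called lower and 0.737% higher, and among the brighter genes 1.80% and 1.27%. Ppp1r15a, coding for GADD34, the inducible subunit that directs a phosphatase to eIF2 and a known early stress gene, fell 7.03-fold, from 10.01, 10.01 and 9.51 to 6.82 and 7.24 (-2.81 ± 0.24 SE, adjusted p = 0.0440). Its constitutive counterpart Ppp1r15b differed by -0.15 ± 0.07. Of 10 measured phosphatase and GCN2 regulator genes, 1 was called lower and none higher (median -0.08), and Gcn1l1 was not measured. Among 20 target genes of the stress response, Atf3, a stress-induced transcription factor, fell from 11.14, 10.65 and 10.95 to 8.78 and 8.68 (-2.19 ± 0.17, adjusted p = 0.0406), and none rose. The list's median of 0.10 hid wide differences, with 5 of the 20 genes beyond 2-fold, beside 914 of the 10356 brighter genes. Of the 20, 6 lay wholly above and 4 wholly below the unstimulated arrays, beside 29.9% and 21.3% of the brighter genes. Atf4, whose mRNA is favoured when eIF2 is phosphorylated, read 9.35, 9.14 and 9.01 against 8.98 and 9.14 (-0.11 ± 0.13, adjusted p = 0.654), and Ddit3, coding for CHOP, differed by -0.14 ± 0.14 (adjusted p = 0.616). Both overlapped between the groups. The other genes beyond 2-fold, picked after their values were seen, were all higher without a call and code for enzymes of amino acid and folate metabolism. The asparagine synthetase gene Asns stood at 7.30, 6.60 and 6.27 against 9.21 and 8.97 (2.37 ± 0.37, adjusted p = 0.0808). Psat1, of serine synthesis, differed by 1.56 ± 0.21 (adjusted p = 0.0683), and the mitochondrial folate enzyme genes Shmt2 and Mthfd2 by 1.43 ± 0.29 and 1.41 ± 0.37. All 4 had groups that did not overlap.

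**Figure D3:**
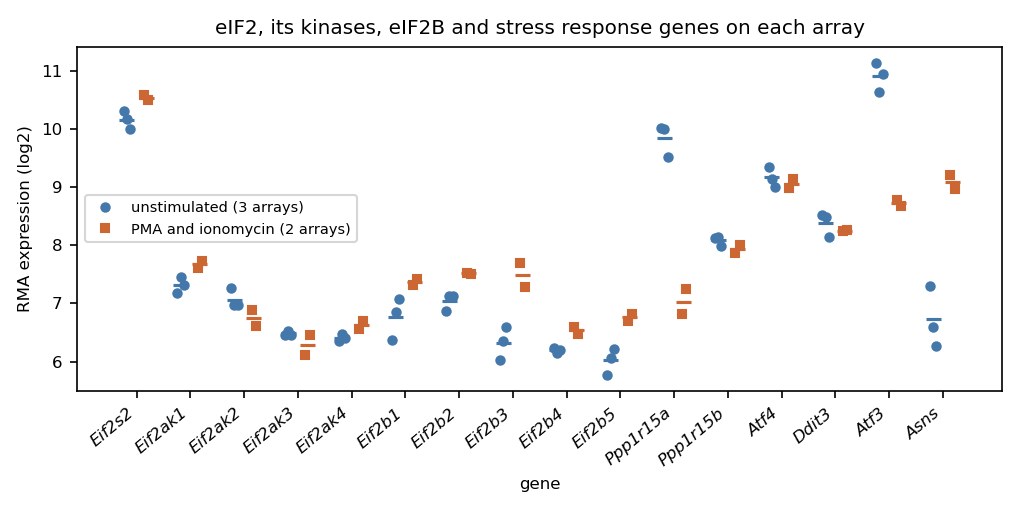
Points are log2 RMA values of single arrays (circles: 3 unstimulated, squares: 2 with PMA and ionomycin) and lines are group means, for the eIF2 beta subunit gene, the eIF2 kinases, eIF2B subunits and genes around eIF2 phosphorylation. The squares lie above the circles for every Eif2b gene, far below them for Ppp1r15a and Atf3, and among them for Atf4.

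The eIF3 genes differed in both directions. Of 11 measured subunit genes, 5 lay higher on both stimulated arrays than on any unstimulated array, 2 lay lower and 4 overlapped, and none was called. This is 5 and 2 of 11, beside 29.9% and 21.3% of the brighter genes. The median difference was 0.30, but 0.13 without stimulated array 1 and 0.44 without stimulated array 2. Eif3b, coding for the subunit that scaffolds one module of the factor, read 7.48, 8.06 and 7.80 in unstimulated cells and 8.69 and 8.56 after stimulation (0.85 ± 0.20 SE, adjusted p = 0.142). Eif3d, coding for a subunit known to bind the cap of some mRNAs, read 8.51, 8.78 and 8.87 against 9.47 and 9.54 (0.79 ± 0.13, adjusted p = 0.0872). Eif3l was next with 8.36, 8.93 and 8.77 against 9.32 and 9.53 (0.74 ± 0.21, adjusted p = 0.190). Eif3i, the partner of Eif3b's product, and Eif3c, a subunit of the core, differed by 0.51 ± 0.21 and 0.47 ± 0.09. For all 5 the groups did not overlap.

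The other 6 eIF3 subunit genes differed by 0.30 or less, 4 with overlapping groups and 2 lower. Eif3a, coding for the largest subunit, read 10.76, 10.76 and 10.73 against 10.76 and 10.79 (0.02 ± 0.02 SE, 95% interval -0.03 to 0.07), with 1 value shared by 2 arrays. Eif3h read 11.36, 11.44 and 11.39 against 11.41 and 11.44 (0.03 ± 0.03, interval -0.06 to 0.12). Both upper bounds lie below the 0.47 of Eif3c. Eif3k (0.18 ± 0.11) and Eif3m (0.30 ± 0.18, with 0.17 ± 0.12 in a second probe set) also overlapped between the groups. Eif3f read 9.82, 10.02 and 9.66 against 9.58 and 9.56 (-0.26 ± 0.12, adjusted p = 0.382), and Eif3e read 10.06, 10.03 and 10.01 against 9.83 and 9.92 (-0.16 ± 0.04, adjusted p = 0.136). With 3 against 2 arrays an exact permutation test cannot go below p = 0.1, so none is given. The 2 probe sets shared by Eif3j1 and Eif3j2 differed by 0.16 and 0.21, and Eif3g was not measured.

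The eIF4 group held both called genes and also the gene with the lowest difference. Eif4enif1 codes for 4E-T, a protein that binds eIF4E and is known from the cytoplasmic bodies of mRNA storage and decay. It rose 2.47-fold, from 7.38, 7.54 and 7.59 to 8.80 and 8.81 (1.30 ± 0.08 SE, 95% interval 1.09 to 1.52, adjusted p = 0.0307), and the 2 stimulated arrays were almost equal. A second probe set of lower mean, annotated to fewer transcript accessions, differed by 0.31 ± 0.22 (adjusted p = 0.480 with every probe set tested on its own). Taking the mean of its probe sets gave 0.81 (adjusted p = 0.0736), so this call rests on the first probe set. Its adjusted p ran from 0.0576 to 0.114 when 1 array was left out, above the threshold each time.

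The helicase genes Eif4a1 and Eif4a2, whose proteins are close relatives that both serve in eIF4F, had differences of opposite sign. Eif4a1 rose 1.66-fold, from 10.19, 10.18 and 10.33 to 10.95 and 10.98 (0.74 ± 0.06 SE, adjusted p = 0.0403). Its other 2 probe sets gave 0.47 ± 0.05 and 0.45 ± 0.05 (adjusted p = 0.0499 and 0.0591 with every probe set tested on its own). The probe set used thus had the widest difference of the 3. All 3 are annotated to much the same transcripts, and what near-identical copies of the gene add to each was not tested. With 1 array left out, Eif4a1 stayed called only when that was unstimulated array 3 (adjusted p = 0.0360). Dropping unstimulated array 1 or 2 gave 0.112 or 0.134, and dropping stimulated array 1 or 2 gave 0.104 or 0.0971. Eif4a2 read 11.37, 11.09 and 11.24 against 10.75 and 10.95 (-0.38 ± 0.12, adjusted p = 0.206), so its groups did not overlap but it was not called. The gap of Eif4a1 to Eif4a2 changed from -1.19, -0.91 and -0.91 to 0.20 and 0.03 on the log2 scale, a shift of 1.12 that follows from their opposite signs. Eif4a3, coding for the related helicase of the exon junction complex, read 9.58, 9.65 and 9.82 against 10.10 and 9.95 (0.34 ± 0.10, adjusted p = 0.193). Its copy Eif4a3l1 was dim (means 3.25 and 3.64, both under 4.49) and differed by 0.38 ± 0.04 (adjusted p = 0.0573).

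The bases before the start sites of these paralogs are shown because the genes differed in sign, together with those of Eif3d and Eif3f, subunit genes of one factor with opposite signs. The windows are the 250 bases before each RefSeq start (build GRCm38.p6), 5′ to 3′ on the gene's strand. Eif4a1 is on the minus strand at chr11:69672424-69672673, Eif4a2 on the plus strand at chr16:23107218-23107467, Eif3d on the minus strand at chr15:77970825-77971074 and Eif3f on the plus strand at chr7:108934165-108934414. Capitals mark CACGTG, the E-box letters, and CCGGAA, a core known from ETS family sites, on either strand.
Eif4a1: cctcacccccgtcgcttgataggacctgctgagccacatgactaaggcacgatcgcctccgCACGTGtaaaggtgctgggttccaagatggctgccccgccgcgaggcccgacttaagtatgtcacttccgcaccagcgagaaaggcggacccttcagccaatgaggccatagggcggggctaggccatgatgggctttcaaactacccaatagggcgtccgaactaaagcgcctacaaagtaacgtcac
Eif4a2: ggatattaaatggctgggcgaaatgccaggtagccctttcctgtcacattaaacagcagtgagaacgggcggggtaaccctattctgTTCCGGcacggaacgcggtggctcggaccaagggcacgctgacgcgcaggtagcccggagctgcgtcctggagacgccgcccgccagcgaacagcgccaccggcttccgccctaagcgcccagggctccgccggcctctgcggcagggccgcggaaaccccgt
Eif3d: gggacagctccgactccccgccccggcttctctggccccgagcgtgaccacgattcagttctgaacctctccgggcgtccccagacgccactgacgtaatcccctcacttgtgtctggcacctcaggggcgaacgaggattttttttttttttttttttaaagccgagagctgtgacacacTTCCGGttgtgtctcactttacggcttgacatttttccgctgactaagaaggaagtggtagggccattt
Eif3f: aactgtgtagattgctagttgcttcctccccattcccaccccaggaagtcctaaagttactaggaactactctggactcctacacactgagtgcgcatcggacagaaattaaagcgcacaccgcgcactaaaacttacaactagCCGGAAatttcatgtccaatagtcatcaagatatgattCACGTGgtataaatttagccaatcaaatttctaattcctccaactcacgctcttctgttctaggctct

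The E-box letters began 189 bases before the start of Eif4a1 and 68 bases before that of Eif3f, and CCGGAA began 163 bases before the start of Eif4a2, 69 before Eif3d and 106 before Eif3f. Of the 37 members with a promoter in the RefSeq table, 8 (21.6%) held CACGTG, against 6.86% of all 27025 genes in it and 9.94% of the 8314 brighter genes on these arrays. CCGGAA was held by 16 (43.2%), against 13.6% and 25.6%. GCCATTTT was held by Eif2b4 and Eif2s2 (5.41%, against 1.23% of all genes and 1.43% of brighter ones) and TGACGTCA by no member (1.77% and 3.08%). None of these 4 strings contains another, both strands were read, and the members had 1.35 start sites a gene on average against 1.23 for all genes tested. A string's presence went with no clear split of the changes: the 8 genes with CACGTG had a median difference of 0.43 and a range from -0.26 to 0.74, and the 29 without it a median of 0.34 and a range from -0.38 to 1.30. With CCGGAA the median was 0.27, and without it 0.35.

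Among cap-binding proteins, Eif4e and Eif4e3 stood in opposite directions, and neither was called. Eif4e, coding for the main cap-binding subunit, read 8.78, 8.53 and 8.54 in unstimulated cells and 9.40 and 9.04 after stimulation (0.61 ± 0.16 SE, adjusted p = 0.160). A second probe set of the gene gave 0.63 ± 0.10, and a further one, annotated to a single accession and near the median of all probe sets, gave -0.15 ± 0.13. Eif4e3, coding for an atypical cap-binding relative, read 8.92, 9.30 and 9.44 against 8.53 and 8.07 (-0.92 ± 0.24, adjusted p = 0.160). It was the lowest difference of the 47. The gap of Eif4e to Eif4e3 changed from -0.15, -0.77 and -0.89 to 0.88 and 0.97, which likewise follows from the opposite signs. Eif4e2, coding for 4EHP, a cap-binding protein that does not bind eIF4G, differed by 0.26 ± 0.14, and Eif4e1b, known from oocytes, by -0.10 ± 0.11 near the median of all probe sets.

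The inhibitors of eIF4E were not uniform either. Eif4ebp1, coding for 4E-BP1, read 6.17, 6.32 and 6.24 against 6.93 and 6.64 (0.54 ± 0.11 SE, adjusted p = 0.112). The gap of Eif4e to Eif4ebp1 was 2.60, 2.21 and 2.30 before and 2.47 and 2.40 after, so both genes differed by like amounts. Eif4ebp2 overlapped between the groups (6.75, 6.73 and 6.75 against 6.72 and 6.93; 0.08 ± 0.07, adjusted p = 0.552), and its difference was -0.02 without stimulated array 2. The probe set of Eif4ebp3, shared with Ankhd1, read 7.47 on all unstimulated arrays and 7.51 and 7.34 after stimulation.

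Neither measured scaffold gene of the eIF4G family was called. Eif4g2, whose product DAP5 lacks the eIF4E-binding part, read 10.64, 10.53 and 10.51 against 10.29 and 10.34 (-0.24 ± 0.05 SE, adjusted p = 0.119) with no overlap. Eif4g3 differed by -0.11 ± 0.07 and overlapped, and Eif4g1 was not measured. Eif4b and Eif4h, coding for helpers of the eIF4A helicase, differed by 0.15 ± 0.07 and 0.26 ± 0.15, and Eif4h had 1 value, 8.29, on 3 of the 5 arrays.

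**Figure D4:**
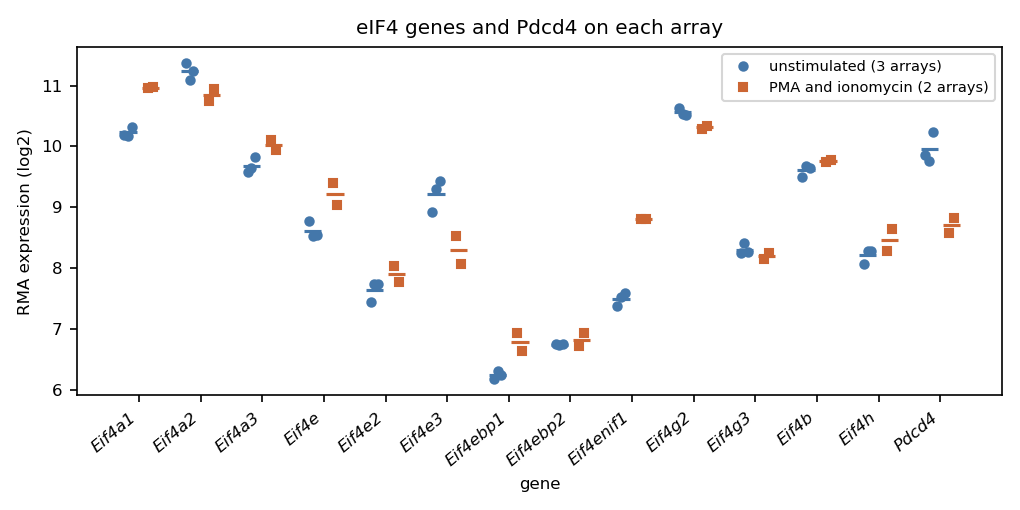
Points are log2 RMA values of single arrays (circles: 3 unstimulated, squares: 2 with PMA and ionomycin) and lines are group means, for eIF4 genes and the eIF4A inhibitor gene Pdcd4. Squares lie above circles for Eif4a1, Eif4e, Eif4ebp1 and Eif4enif1 and below them for Eif4a2, Eif4e3, Eif4g2 and Pdcd4.

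Partners of the cap-binding complex were on the low side without a call. All 7 measured genes for eIF4E kinases, the eIF4A inhibitor and poly(A)-binding partners had negative differences (median -0.17), and Pabpc4 was not measured. Pdcd4, coding for an inhibitor of eIF4A, read 9.86, 9.75 and 10.24 against 8.58 and 8.83 (-1.24 ± 0.19 SE, adjusted p = 0.0798). The poly(A)-binding protein gene Pabpc1 differed by -0.10 ± 0.05, and the eIF4E kinase genes Mknk1 and Mknk2 by -0.19 ± 0.07 and -0.17 ± 0.09. None of 14 measured genes of mTORC1 and its regulators was called. Their median of 0.04 came from genes on both sides. Of the 14, 4 lay wholly above and 4 wholly below the unstimulated arrays, beside 29.9% and 21.3% of the brighter genes. Named after their values were seen, Deptor, coding for an mTOR inhibitor, differed by -0.75 ± 0.08 (adjusted p = 0.0520), Rheb, coding for the GTPase that activates mTORC1, by -0.51 ± 0.16, and Mtor by 0.54 ± 0.11, none with overlap. Ddit4, coding for an mTORC1 inhibitor, differed by 0.05 ± 0.04, and Rps6kb1 was not measured.

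The late factors were divided. Eif5b, coding for the GTPase of subunit joining, read 8.93, 8.95 and 9.10 in unstimulated cells and 9.51 and 9.50 after stimulation (0.51 ± 0.06 SE, adjusted p = 0.0612). Eif5, coding for the protein that makes eIF2 hydrolyse GTP, read 10.76, 10.50 and 10.50 against 10.27 and 10.32 (-0.29 ± 0.10, adjusted p = 0.266). A probe set annotated to both Eif5 and the small nucleolar RNA Snora28 read 8.75, 8.28 and 8.31 against 6.55 and 6.31, a difference of -2.02, much wider than that of Eif5's own probe set.

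Eif5a, coding for a factor that is modified with hypusine and now mainly known for elongation, read 8.56, 8.85 and 8.93 against 9.39 and 9.57 (0.70 ± 0.15 SE, adjusted p = 0.119). Its second probe set, of lower mean, gave 0.21 ± 0.07. The paralog Eif5a2 lay near the median of all probe sets (5.76 on each unstimulated array, 5.77 and 5.59 after stimulation) and differed by -0.08 ± 0.06. The hypusine enzyme genes Dhps and Dohh differed by 0.14 and 0.24, neither called. Eif6, coding for the factor that keeps free large subunits apart, read 6.81, 6.92 and 7.03 against 7.55 and 7.40 (0.55 ± 0.09, adjusted p = 0.0820), with no overlap.

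In the neighbouring steps of translation, 1 helicase gene fell and 1 termination factor gene rose. Among 8 genes for helicases, recycling and reinitiation, the helicase gene Ddx3x fell from 11.38, 11.30 and 11.23 to 10.64 and 10.57 (-0.70 ± 0.06 SE, adjusted p = 0.0416), and none rose (median 0.17). Ddx3x is X-linked, as Xist is. Of 3 termination factor genes, Gspt1, coding for eRF3, rose from 9.53, 9.62 and 9.64 to 10.23 and 10.20 (0.62 ± 0.04, adjusted p = 0.0358; median 0.34). None of 6 measured elongation factor genes was called (median 0.02), and Eef2k held 1 value on all arrays. Eef1e1, picked after its values were seen and coding for a scaffold of the tRNA synthetase complex, read 7.99, 8.49 and 8.60 against 10.11 and 9.81, a 3.03-fold difference with no overlap (1.60 ± 0.24, adjusted p = 0.0792), wider than that of any initiation factor gene. Over all 8 lists, 1 of 69 pathway genes was called higher (1.45%) and 3 lower (4.35%), beside 0.737% and 0.963% of all genes. Their median was 0.04, against 0.34 over the initiation factor genes.

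**Figure D5:**
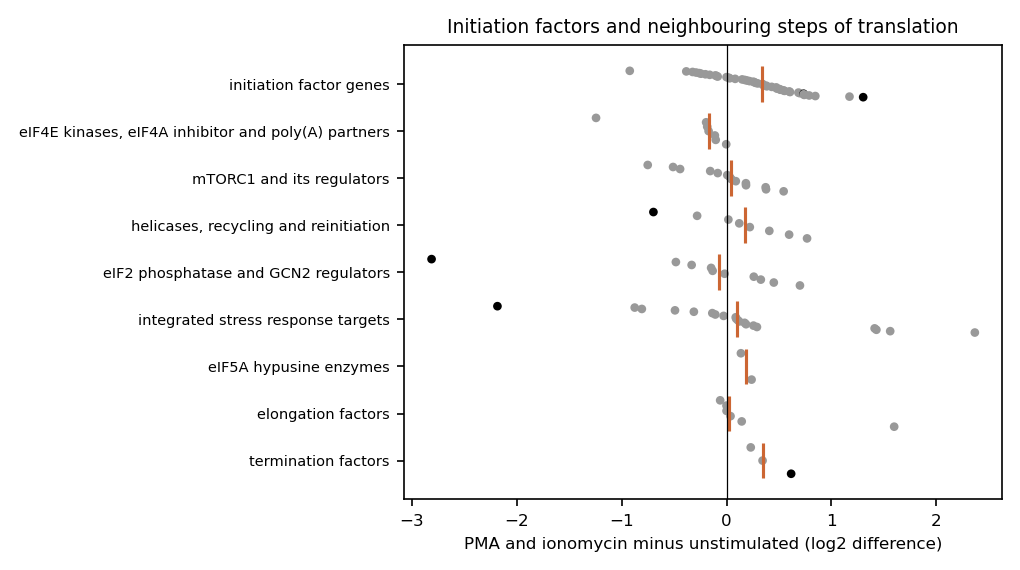
Points are single genes at their log2 difference (PMA and ionomycin minus unstimulated) in the 47 initiation factor genes and in 8 lists of neighbouring steps, black where called, and vertical lines are medians. The medians of the initiation factor genes and of the 3 termination factor genes (both 0.34) lie farthest right, and Ppp1r15a (-2.81) and Atf3 (-2.19) lie far to the left.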

How the data were processed

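Total RNA (6 micrograms) from 5 samples was labelled with biotin for 1-colour Affymetrix arrays, per the labels' protocols. The values deposited by the authors are log2 expression values; the submitters' processing notes name RMA. The sources used here name neither its version nor a genome build. Of 35556 probe sets, 21789 had 1 symbol in the platform annotation, 1621 had several and 12146 were not in the table used here. A gene was represented by its probe set of highest overall mean (7 members had several). All 47 members matched the RefSeq gene table by Entrez number. All 19938 genes were fitted with limma 3.58.1 in R 4.3.3 (lmFit, eBayes; prior 0.649 and residual 3 degrees of freedom) without a filter, and a call needed an adjusted p (Benjamini-Hochberg) under 0.05. Of these genes, 1304 held 1 value on all 5 arrays. The script was tested on simulated data.

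Groups and replicate numbers came from the titles. Whether the samples were separate mice or cultures is not stated; the p-values therefore reflect array-to-array spread that may be technical, and 5 arrays limit the precision. The members and gene lists were chosen with earlier results of these data known. Every member could be named; from each list the called genes and a few regulators were named. Other list genes named after their values were seen are marked so. Promoters came from RefSeq (GRCm38.p6), with 37 of 47 members matched. Alternatives were 2 variance models, array weights, a filter on dim genes, 2 normalizations, 2 treatments of probe sets, a replicate block and leaving out each array. Plots used matplotlib 3.10.9.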

Additional observations from a re-analysis of the deposited data

How the results depend on the processing

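The members' median difference stayed above 0 in every alternative run, between 0.28 and 0.40 when 1 array was left out and 0.29 against unstimulated array 3 alone (an alternative chosen after seeing the data). The number of members called was less stable. It was 2 higher and 0 lower as reported, 1 higher with robust variances (Eif4enif1) and 1 with the mean of probe sets (Eif4a1). It was 11 among genes above the median, 9 after median centring, 12 after quantile normalization and 8 without the genes of 1 value on all arrays (also chosen after seeing the data), and Eif4a1 and Eif4enif1 were among them each time; none was called lower there. Over all genes these 4 settings called 824, 660, 825 and 670 higher. The cause was not tested. Leaving out 1 unstimulated array gave 0 to 2 higher and 0 lower. None was called without array 1 or 2. There 24 and 21 members had an unadjusted p under 0.05, beside 3244 and 3024 of all 19938 genes. Over all genes, 2 were called higher and 5 lower without array 1, and 0 without array 2. Without array 3, Eif4a1 and Eif5b were called, beside 45 higher and 43 lower of all genes. Leaving out 1 stimulated array leaves 1 array in that group, and members called in those fits are not counted here.

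Arrays 1 and 2 of both groups share a number. The deviations of same-numbered arrays from their group means correlated at -0.14 and -0.06 across genes. The deviations of the 2 stimulated arrays mirror each other, so crossed numbers gave 0.14 and 0.06. These values therefore cannot decide whether the number pairs the arrays. With the replicate block 0 members and 0 of all genes were called (18 and 3568 at an unadjusted p under 0.05).

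Medians by factor, with 1 array left out, ran from 0.41 to 0.48 for eIF1, 0.086 to 0.24 for eIF2, 0.40 to 0.75 for eIF2B, 0.13 to 0.44 for eIF3, 0.13 to 0.29 for eIF4 and 0.17 to 0.26 for eIF5. Against unstimulated array 3 alone they were 0.35 for eIF1, 0.40 for eIF2B, 0.45 for eIF3, 0.17 for eIF4 and 0.16 for eIF5, and the filter on dim genes gave 0.20 for eIF4. Single genes that changed sign were Eif4e1b (-0.24 to 0.054 with 1 array left out, positive without stimulated array 1), Eif4ebp2 (-0.024 to 0.19) and Eif5a2 (-0.17 to 0.0035), the last 2 without stimulated array 2. Dim members could not be set apart from background without detection calls.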
